A study of Danio rerio with 12 samples.

Results

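Gene expression in whole zebrafish larvae was compared between 7 arrays of larvae exposed to an agonist of the liver X receptor (LXR), taken as 1 group, and 4 arrays of larvae kept in the vehicle DMSO. These are 11 of the 12 arrays of the series. Genes were described where every agonist array lay above, or every agonist array lay below, all 4 DMSO arrays, which is called no overlap here. Of 23645 genes tested, 12097 had a symbol, and each other probe identifier was counted as a gene. Of all genes tested, 1037 (4.39%) had no overlap, 471 of them higher (1.99%) and 566 lower (2.39%) under the agonists. The rule used this contrast itself, so these shares describe how the genes were chosen.

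LXR is a nuclear receptor that binds oxysterols and works as a pair with the retinoid X receptor. In vertebrates it turns on genes that export cholesterol from cells, make bile acids and remodel plasma lipoproteins, and through the transcription factor SREBP-1c it turns on genes that make and desaturate fatty acids. Genes of cholesterol synthesis and LDL uptake are controlled mainly by the related factor SREBP-2, which is released from the endoplasmic reticulum when membrane sterol is low. T0901317 and GW3965 are synthetic LXR agonists, and T0901317 is known from mammalian cells to activate the pregnane X receptor as well.

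All larvae were wild type of the WIK strain. They were exposed in pools of 30 from day 4 to day 6 after fertilization, the solutions were replaced once after 24 h, and every group, the controls included, was in 0.1% DMSO. Doses are given as labelled, 2 mM T0901317 and 1 mM GW3965. A micro sign may have been lost there, and the labelled doses of the agonists differ. The pools are described as biological quadruplicates, and T0901317 replicate 2 had been excluded by the authors, which left 3 T0901317, 4 GW3965 and 4 DMSO arrays.

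Among the 11 arrays the processed signal had a 75th percentile of 332 to 390 intensity units, and 78.8% to 83.2% of probes were well above background. Correlations across genes were 0.988 to 0.994 within DMSO, T0901317 and GW3965, and 0.984 to 0.992 between agonist and DMSO arrays. Between T0901317 and GW3965 arrays they were 0.983 to 0.990, so the agonists were no closer to each other than to DMSO. All 34 measured markers, of 39 chosen for 12 cell types of the larva, were well above background on every array. In RNA of whole larvae, fewer cells of a type and less RNA per cell cannot be told apart. Each slide and scan held 1 group: DMSO lay on 1 slide and the agonists on the other two, and the effects of slide and treatment therefore cannot be told apart. Intensities below are processed signals scaled to a common 75th percentile of 361 units, and are compared only within a gene. Log2 fold changes carry the standard error (SE) from fitting 7 against 4 arrays in limma. The residual spread of this fit holds the difference between the agonists, so that difference enters the SE and p. Where the agonists differed, the pooled value lay between theirs. Adjustment of p followed Benjamini and Hochberg and covered every gene tested.

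The pooled fit called 588 genes at an adjusted p under 0.05 (2.49% of those tested), 223 higher (0.943%) and 365 lower (1.54%). These shares are the background for every count below of list members that rose or fell. At such shares most lists hold few calls. Of the genes with no overlap, 209 higher and 344 lower ones were called, while 14 called higher and 21 called lower did overlap. Rises were fewer than falls, and more of them were at least 2-fold. Among the higher genes the median log2 size was 0.31 and 53 changed at least 2-fold, against 0.43 and 23 among the lower ones. Over all genes tested the median of the signed log2 fold changes, in which rises and falls offset each other, was 0.02. A median size over all genes was not computed. The count of calls was 325 without DMSO replicate 2, 340 without DMSO replicate 3 and 309 with the excluded T0901317 replicate 2 put back.

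The largest rise was that of fads2, which in zebrafish encodes the fatty acyl desaturase that inserts double bonds on the way to long polyunsaturated fatty acids. Its DMSO arrays read 569.8, 518, 593 and 579.5 units, and the agonist arrays 7849 to 10725 (median 9502). It was 16.5-fold higher (log2 4.04 ± 0.10, limma, adjusted p = 2.54e-09), and all 6 other probes of the gene were higher too. Next among genes with a symbol came pltp, the phospholipid transfer protein that moves phospholipid between lipoproteins and is an LXR target in mammals. Its DMSO values were 275, 279, 252 and 300.0 units, against 2261, 2382 and 3391 under T0901317 and 1717, 1739, 1965 and 2868 under GW3965. That is an 8.22-fold rise (3.04 ± 0.18, limma, adjusted p = 4.19e-06), with the arrays numbered 4 the highest under both agonists. The crystallin gene crygs2 and the stearoyl-CoA desaturase gene scd followed, at 2.76 ± 0.24 and 2.36 ± 0.21. Both were well above background on 3 of 4 DMSO arrays, and with normexp background correction, which adds an offset of 50 before the logarithm, they were 0.94 and 0.72 and still called.

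**Figure D1:**
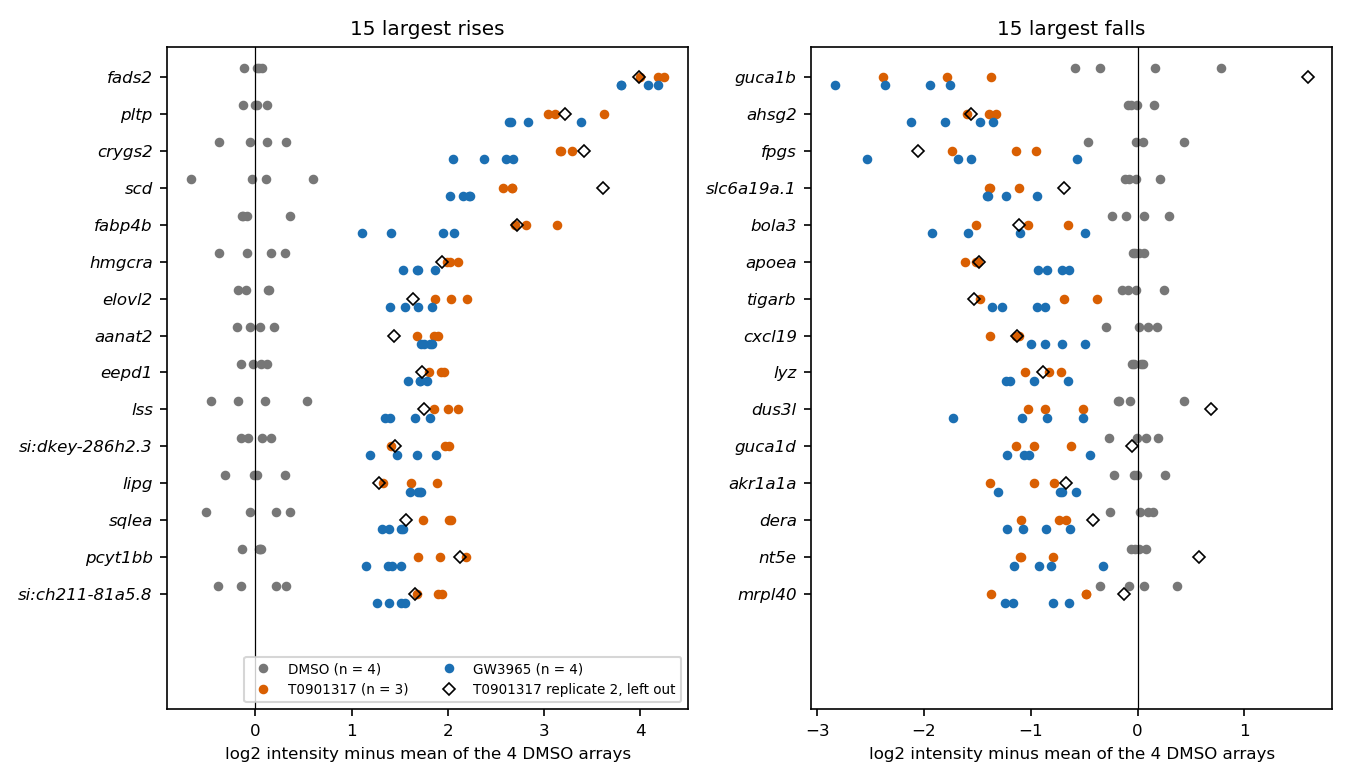
Log2 intensity of each array minus the mean of the 4 DMSO arrays, for the 15 largest rises (left) and the 15 largest falls (right) among called genes with no overlap and a symbol that all arrays of DMSO or all 7 agonist arrays measured well above background; points are single arrays. The 7 agonist points lie beyond all DMSO points in every gene by the rule, whereas the open diamond, the excluded T0901317 replicate 2, lies with the other agonist arrays in all 15 rises but, among the falls plotted, above all DMSO arrays for guca1b, dus3l and nt5e and within the DMSO range for guca1d and mrpl40.

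Among known LXR targets 10 of 19 measured genes rose and 1 fell, and 15 had positive values; the median was 0.44, against 0.02 over all genes. The receptor gene itself, nr1h3, read 321, 279, 285 and 322 units in DMSO and 382 to 464 (median 424) under the agonists. It rose 1.4-fold (0.49 ± 0.07, limma, adjusted p = 0.00464). The cholesterol exporter abcg1 read 46.3, 67.2, 48.0 and 57.5 units in DMSO and 108 to 127 (median 119) under the agonists, a 2.2-fold rise (1.14 ± 0.10, adjusted p = 0.000103, or 0.72 with normexp). The 7 agonist arrays lay close together, and DMSO replicate 2 was the highest control. In mammals eepd1 supports cholesterol efflux from macrophages; it rose from a DMSO range of 539 to 648 units to an agonist range of 1798 to 2331 with a median of 2051 (1.78 ± 0.08, adjusted p = 1.18e-06). The ubiquitin ligase gene mylipa, whose mammalian counterpart IDOL degrades the LDL receptor, rose from a DMSO range of 1153 to 1728 units to an agonist range of 3946 to 4724 with a median of 4368 (1.52 ± 0.11, adjusted p = 2.50e-05). Here the log2 fold changes were 1.52 ± 0.14 under T0901317 and 1.52 ± 0.13 under GW3965.

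The remaining targets act in lipogenesis, bile acid synthesis and plasma. The SREBP-1 gene srebf1 read 87.5, 63.9, 63.5 and 76.1 units in DMSO, 195, 150.1 and 181 under T0901317 and 117, 125, 104 and 106 under GW3965. All T0901317 values lay above all GW3965 values, which lay above all DMSO values. The pooled rise was 0.91 ± 0.19 (limma, adjusted p = 0.0248); the call ended without DMSO replicate 2, 3 or 4 (adjusted p 0.0981, 0.097 and 0.0594). The gene cyp7a1, the rate-limiting enzyme of the classic route to bile acids, read 524, 428, 414 and 322 units in DMSO and 665 to 1377 (median 929) under the agonists (1.2 ± 0.19, adjusted p = 0.00737). Its lowest agonist value was in T0901317 replicate 4 and its highest DMSO value in replicate 1. The other probe of cyp7a1 was at 0.515, and its arrays overlapped. The cholesteryl ester transfer protein gene cetp rose by 0.44 ± 0.09 (adjusted p = 0.0227), a call that ended without DMSO replicate 3 or 4 (adjusted p 0.0801 and 0.0626). Lipoprotein lipase, lpla, had no overlap but did not pass (0.67 ± 0.16, adjusted p = 0.0546), and the exporter gene abca1b overlapped (0.38 ± 0.14, adjusted p = 0.224).

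Of 20 measured enzymes of cholesterol synthesis, 11 rose and 0 fell, 17 had positive values, and the median was 0.54 (0.68 under T0901317 and 0.48 under GW3965, which share the DMSO arrays). Rises were found at early and at late steps. In the first section of the route hmgcra, the rate-limiting reductase, read 109, 89.3, 144 and 129.7 units in DMSO, 462, 472 and 498 under T0901317 and 424, 373, 336 and 375 under GW3965. That was a 3.58-fold rise (1.84 ± 0.14, limma, adjusted p = 4.65e-05), while its paralog hmgcrb was at 0.32 ± 0.13 (adjusted p = 0.265). The mevalonate enzymes mvk (0.62 ± 0.12) and mvda (1.12 ± 0.11) and the prenyl synthase fdps (0.31 ± 0.06) rose, whereas idi1 (-0.03 ± 0.09) and fdft1 (-0.28 ± 0.35) were not called (adjusted p 0.919 and 0.783). Without DMSO replicate 2 the calls of mvk and fdps ended (adjusted p 0.0782 and 0.0858). Without DMSO replicate 4 (adjusted p = 0.0566) or with T0901317 replicate 2 put back (0.125), the call of fdps ended too.

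After squalene, the epoxidase gene sqlea read 16.8, 12.2, 22.4 and 20.1 units in DMSO and 43.5 to 71.3 (median 50.5) under the agonists (1.65 ± 0.19, limma, adjusted p = 0.00063). The cyclase gene lss, which closes the sterol rings, read 42.5, 28.7, 57.4 and 35.0 units in DMSO and 101 to 169.8 (median 139) under the agonists (1.74 ± 0.19, adjusted p = 0.000604). Both were dim, and normexp gave 0.54 and 0.86, still called. Later steps rose as well: cyp51 by 1.12 ± 0.22, msmo1 by 1.23 ± 0.15, hsd17b7 by 0.83 ± 0.15, ebp by 0.96 ± 0.13 and sc5d by 1.19 ± 0.15 (adjusted p 0.00102 to 0.0226). The arrays of cyp51 overlapped and those of the others did not. The call of cyp51 ended without DMSO replicate 1, 2 or 4 (adjusted p 0.0508, 0.0929 and 0.0738) and that of hsd17b7 without DMSO replicate 2 (adjusted p = 0.0593). The alternative reductases tm7sf2 (0.19 ± 0.07) and lbr (-0.14 ± 0.15) and the sterol reductase dhcr7 (0.19 ± 0.13) were not called.

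**Figure D2:**
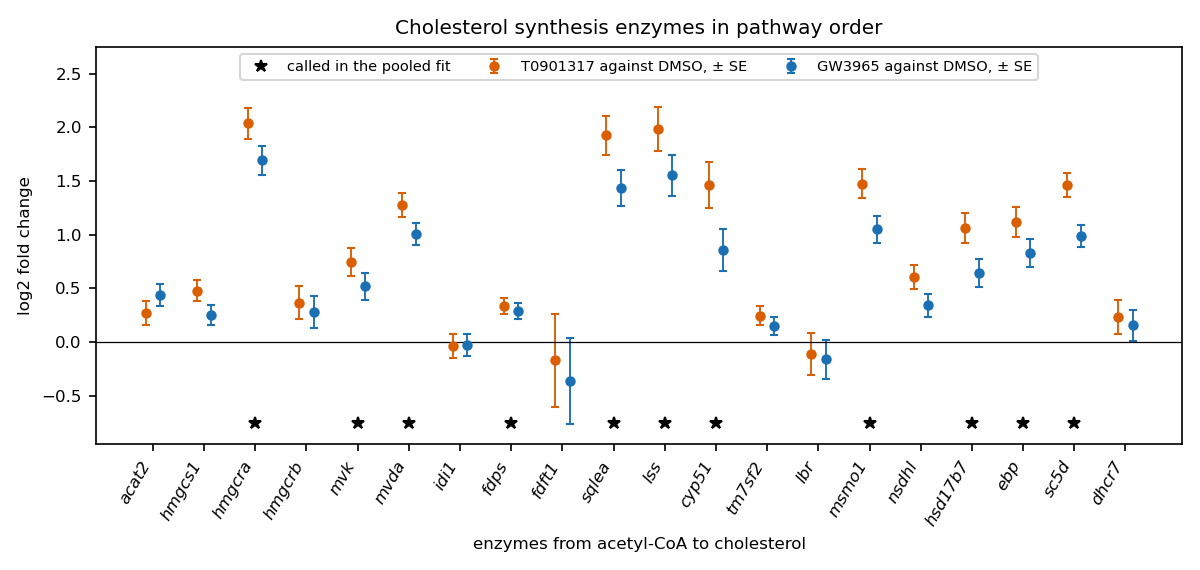
Log2 fold change against DMSO of 20 cholesterol synthesis enzymes, in the order in which they act, for T0901317 (n = 3) and GW3965 (n = 4) against the same 4 DMSO arrays; bars are SE from limma with 3 group means. Stars mark the 11 enzymes called in the pooled fit, in which hmgcra, lss and sqlea had the largest values, and 18 of the 20 points under T0901317 lie above those under GW3965.

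Genes that control SREBP or handle sterols moved less uniformly: 6 of 17 rose and 1 fell, with a median of 0.22. The retention factor insig1, itself a target of SREBP and LXR in mammals, read 604, 685, 575 and 707 units in DMSO and 1020.1 to 1318 (median 1132) under the agonists (0.84 ± 0.09, limma, adjusted p = 0.000467). The sterol carrier gene stard4 rose from a DMSO range of 1010.0 to 1201 units to an agonist range of 1806 to 2192 with a median of 2004 (0.87 ± 0.08, adjusted p = 0.000118). Of the other called genes, mylipa and srebf1 are described with the LXR targets. The SREBP-2 gene srebf2 was at 0.31 ± 0.07 (adjusted p = 0.0453), the cholesterol esterifying gene soat1 at 0.49 ± 0.11 (0.0346; its other probe had the opposite sign, and the mean over its probes was at 0.01 with adjusted p = 0.995) and mbtps2, which encodes the site-2 protease that releases SREBP from the membrane, at -0.37 ± 0.08 (0.0423). These 3 calls ended in 16 of 24, 10 of 24 and 14 of 24 alternatives, among them leaving out any 1 array except GW3965 replicate 2 for srebf2, T0901317 replicate 3 for mbtps2, and DMSO replicate 4, T0901317 replicate 1, T0901317 replicate 4 or GW3965 replicate 1 for soat1 (adjusted p 0.0534 to 0.207 for srebf2, 0.0551 to 0.298 for mbtps2 and 0.0508 to 0.995 for soat1). The LDL receptor gene ldlra was at 0.42 ± 0.14 and overlapped (adjusted p = 0.16).

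In fatty acid synthesis, desaturation and elongation 4 of 22 measured genes rose and 2 fell, with a median of 0.08. Besides fads2 and scd, the elongase gene elovl2, which acts on long polyunsaturated chains, read 463, 392, 461 and 370.3 units in DMSO and 1104 to 1927 (median 1499) under the agonists. It rose 3.47-fold (1.80 ± 0.14, limma, adjusted p = 5.04e-05). The ketoacyl reductase gene hsd17b12a rose by 0.41 ± 0.07 and the elongase elovl8a fell (-0.59 ± 0.10, adjusted p = 0.0117). That fall ended without DMSO replicate 2 or 3 (adjusted p 0.0504 and 0.0501), and the rise of hsd17b12a with T0901317 replicate 2 put back (adjusted p = 0.119). The synthase gene fasn2 was called lower (-1.51 ± 0.27, adjusted p = 0.0135) but its arrays overlapped and 1 of the 7 agonist arrays was well above background. That call ended with normexp (adjusted p = 0.285), with T0901317 replicate 2 put back (0.738) and without DMSO replicate 2 or 3 (0.0555 and 0.0535). The paralog scdb (-0.11 ± 0.10), elovl5 (-0.13 ± 0.07) and elovl6 (-0.19 ± 0.08) were not called, and aclya, the supplier of acetyl-CoA, had no overlap without a call (0.30 ± 0.08, adjusted p = 0.0703).

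Downstream of fatty acid synthesis, 2 of 21 genes of triglyceride assembly and lipid droplets rose and 0 fell (median 0.12). One was the adipocyte fatty acid binding protein gene fabp4b. Its values were 115, 113, 157 and 112 units in DMSO, 265, 514, 327 and 475 under GW3965 and 861, 794 and 1077 under T0901317. The 3 groups did not overlap, and the pooled rise was 2.17 ± 0.35 (limma, adjusted p = 0.00757, or 0.0587 without the arrays numbered 4). The other was fabp4a, at 0.28 ± 0.06 (adjusted p = 0.0291), whose call ended in 12 of 24 alternative settings (adjusted p 0.0526 to 0.157), among them leaving out any 1 array except DMSO replicate 1, T0901317 replicate 1 or T0901317 replicate 4. Outside the lists, the phosphatidylcholine synthesis gene pcyt1bb rose from a DMSO range of 82.6 to 95 units to an agonist range of 202 to 416 with a median of 259 (1.61 ± 0.17, adjusted p = 0.000482). The acyl-CoA synthetase gene acsl4a, whose product prefers arachidonate in mammals, rose from a DMSO range of 1103 to 1369.7 units to an agonist range of 3249 to 3688 with a median of 3379.8 (1.41 ± 0.07, adjusted p = 2.09e-06).

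Fatty acid oxidation, with 34 measured genes, had 1 rise, 2 falls and a median of -0.09. The rise was in acsl1b, an acyl-CoA synthetase (0.53 ± 0.09, limma, adjusted p = 0.00846, or 0.0877 without the arrays numbered 4). The kinase gene pdk4, which shuts down pyruvate dehydrogenase when fat is burned, read 48.3, 57.8, 44.8 and 52.7 units in DMSO and 21.5 to 38.5 (median 27) under the agonists (-0.88 ± 0.13, adjusted p = 0.00464). It was -0.34 with normexp, and the call ended with T0901317 replicate 2 put back (adjusted p = 0.13). The other fall, hadhb (-0.28 ± 0.06, adjusted p = 0.0349), encodes a subunit of the mitochondrial trifunctional protein, and its call ended in 14 of 24 alternatives (adjusted p 0.0547 to 0.194), among them leaving out any 1 array except DMSO replicate 4 or GW3965 replicate 1.

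Genes of apolipoproteins and lipoprotein metabolism split: 5 of 19 rose and 2 fell, with a median of -0.11. Endothelial lipase, lipg, which hydrolyses the phospholipid of HDL, read 1508, 1477, 1199 and 1835 units in DMSO and 3737 to 5494 (median 4796) under the agonists (1.65 ± 0.12, limma, adjusted p = 2.71e-05). The apolipoprotein A-IV gene apoa4a rose by 0.75 ± 0.09 (adjusted p = 0.00102), from a DMSO range of 685 to 762 units to an agonist range of 1073 to 1456 (median 1163). Zebrafish apolipoprotein E is encoded by a pair of genes that went opposite ways.

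For apoea the DMSO arrays read 2604, 2418, 2443 and 2509 units, the GW3965 arrays 1383, 1528, 1308 and 1592 and the T0901317 arrays 812, 882 and 870.2. It fell 2.16-fold (-1.11 ± 0.20, limma, adjusted p = 0.0117, or 0.0522 without the arrays numbered 4), and the 3 groups did not overlap. The falls were 2.92-fold under T0901317 and 1.72-fold under GW3965. In contrast apoeb read 27396, 27703, 24806 and 24691 units in DMSO and 29183 to 39401 (median 34906) under the agonists (0.43 ± 0.09, adjusted p = 0.0239). All 7 other probes of apoeb were higher as well, but the call ended without DMSO replicate 2, 3 or 4 (adjusted p 0.056, 0.09 and 0.0784), without GW3965 replicate 2 (0.051) and over the mean of its probes (0.343). The apolipoprotein C-IV gene apoc4 fell (-0.69 ± 0.09, adjusted p = 0.00207, or -0.35 with normexp). The apolipoprotein B gene apobb.1 had no overlap and did not pass (-0.44 ± 0.13, adjusted p = 0.122).

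Of 61 genes of xenobiotic metabolism, 3 rose and 0 fell (median -0.02). The cytochrome P450 gene cyp2x10.2 read 361, 322, 342 and 279 units in DMSO and 748 to 1262 (median 885) under the agonists (1.54 ± 0.16, limma, adjusted p = 0.000424). The sulfotransferase gene sult2st1 rose by 0.75 ± 0.08 (adjusted p = 0.000501). The third was cyp1a (0.37 ± 0.08, adjusted p = 0.0408), whose arrays overlapped and whose call ended in 15 of 24 alternatives (adjusted p 0.0565 to 0.41), among them leaving out any 1 array except DMSO replicate 1 or GW3965 replicate 3. The pregnane X receptor target cyp3a65 was at 0.05 ± 0.15 (adjusted p = 0.926) and the receptor gene nr1i2 at 0.08 ± 0.10 (adjusted p = 0.784). In bile acid synthesis and transport cyp7a1 was the 1 called gene of 13 (median -0.06). The largest value of that list, 2.08, was that of a gene not called.

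**Figure D3:**
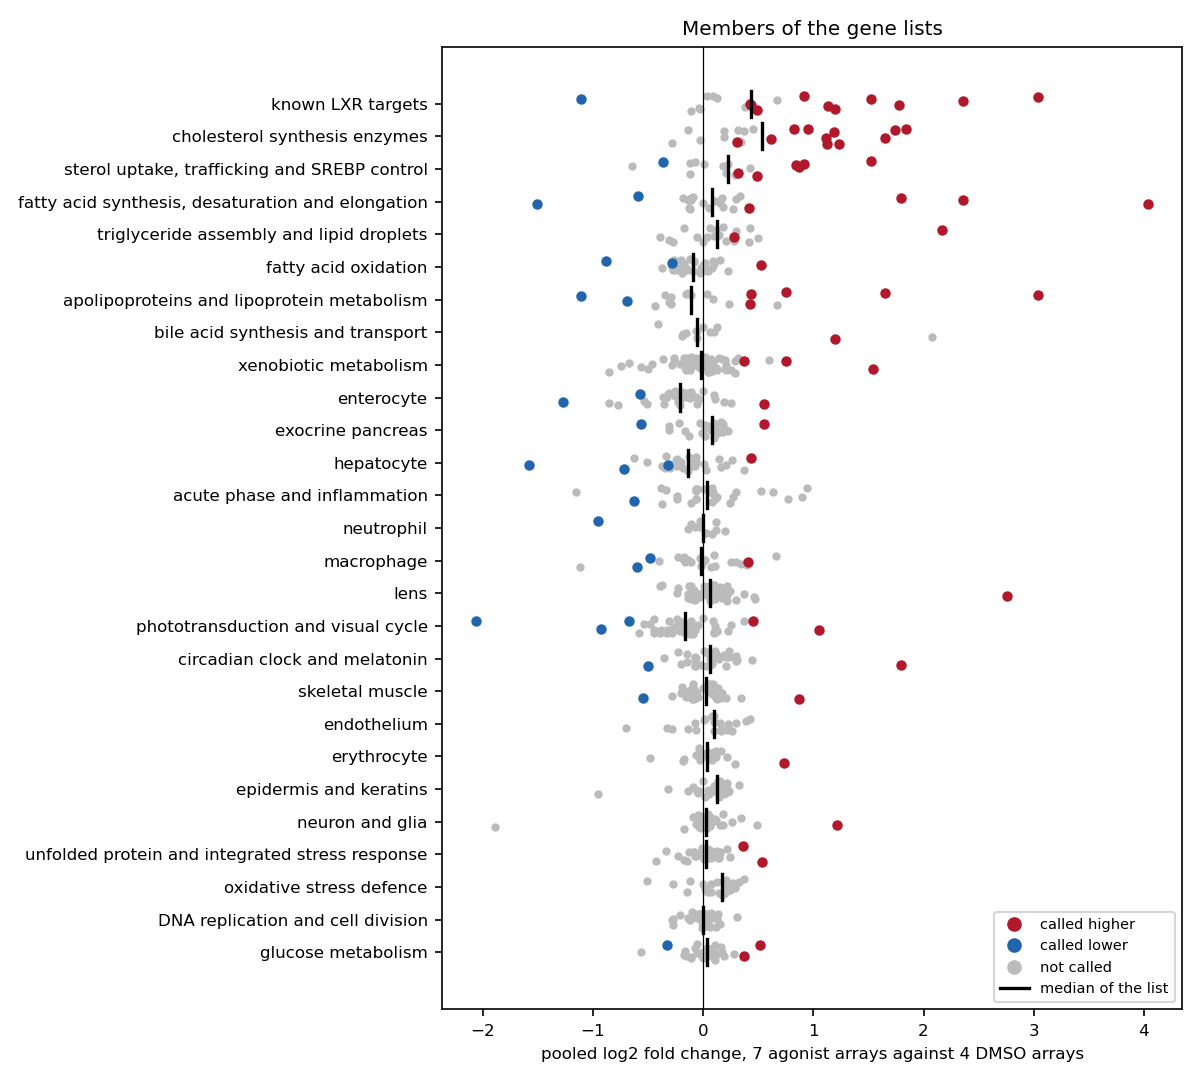
Pooled log2 fold change of every measured member of 27 gene lists, 7 agonist against 4 DMSO arrays; red and blue points are members called higher and lower, grey points are not called and the bar is the list's median. The lists of LXR targets (median 0.44) and cholesterol synthesis enzymes (median 0.54) are shifted to the right. The enterocyte list has a median of -0.21 (-0.35 under T0901317 and -0.10 under GW3965). The phototransduction list has one of -0.16 (-0.22 under T0901317 and -0.12 under GW3965).

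Several of the largest rises among genes with a symbol were in lists with few other called genes. Over all genes tested 2.49% were called. At that share lists of this length hold few calls, so these counts do not set the lists apart. In the lens list crygs2 was the 1 called gene of 57 (median 0.06). It read 7.87, 12.7, 9.86 and 11.1 units in DMSO, 65.2, 53.0, 42.3 and 62.3 under GW3965 and 99.7, 91.3 and 92.4 under T0901317, a 6.78-fold rise (limma, adjusted p = 8.61e-05), and the groups did not overlap. The other genes of the list lay between -0.39 (crygm3) and 0.47 (crybb2).

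In the clock and melatonin list 1 of 38 genes rose and 1 fell (median 0.07). The riser aanat2, which encodes the pineal enzyme that sets the rate of melatonin synthesis, read 427, 501, 469 and 557 units in DMSO and 1552 to 1805 (median 1704) under the agonists (1.79 ± 0.08, limma, adjusted p = 7.42e-07). The gene that fell, the clock repressor nr1d1 (-0.50 ± 0.11, adjusted p = 0.0458), lost its call in 16 of 24 alternatives (adjusted p 0.0502 to 0.538), among them leaving out any 1 array except DMSO replicate 3, T0901317 replicate 4 or GW3965 replicate 1. The brain fatty acid binding protein gene fabp7a, which marks radial glia, rose from a DMSO range of 17744 to 25235 units to an agonist range of 41955 to 54049.6 with a median of 51072 (1.22 ± 0.10, adjusted p = 7.62e-05) and was the 1 called gene of 31 in the list for neurons and glia (median 0.03).

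In skeletal muscle 1 of 44 genes rose and 1 fell (median 0.03). The muscle form of a cytochrome oxidase subunit, cox6a2, read 1862, 1458, 1402 and 1565 units in DMSO and 2418 to 3513 (median 2726) under the agonists (0.87 ± 0.11, limma, adjusted p = 0.0019). The slow myosin heavy chain gene smyhc1 fell from a DMSO range of 7131 to 7977 units to an agonist range of 4559.5 to 5535 with a median of 5269 (-0.55 ± 0.07, adjusted p = 0.00102). Its 2 other probes were at -0.048 and -0.541, and the arrays of both overlapped. Fast myosin and actin genes of the list, such as myhz2 (-0.08 ± 0.07) and acta1b (-0.11 ± 0.20), were not called. The rises of si:dkey-286h2.3 (1.66 ± 0.16) and si:ch211-81a5.8 (1.6 ± 0.16) were of the same size as those of lipg and pcyt1bb.

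Several of the larger falls among genes with a symbol were in genes of liver, gut or immune cells. Of the 23 lower genes of at least 2-fold with no overlap, 7 had a symbol, and those without one are not described. The liver plasma protein gene ahsg2, a fetuin, read 951, 853, 806 and 819 units in DMSO and 196 to 342 (median 307) under the agonists. It fell 2.99-fold (-1.58 ± 0.14, limma, adjusted p = 0.000152), and both other probes of the gene were lower. In the hepatocyte list 3 of 29 genes fell and 1 rose (median -0.13). The riser was the liver fatty acid binding protein gene fabp10a, a common marker of larval liver, with 86384, 73681, 70445 and 77676 units in DMSO and 87597 to 113328 (median 105507) under the agonists (0.43 ± 0.08, adjusted p = 0.0198). That call ended without DMSO replicate 2, 3 or 4 (adjusted p 0.0807, 0.0794 and 0.052). The other falls were the clotting genes f9b (-0.72 ± 0.13, or -0.21 and adjusted p = 0.0999 with normexp) and serpind1 (-0.32 ± 0.06). Both lost their call without DMSO replicate 2 or 3 (adjusted p 0.0509 to 0.0801), and f9b with T0901317 replicate 2 put back (adjusted p = 0.464). The 3 measured hepatocyte markers, fabp10a included, changed by -0.51 to 0.43 on the log2 scale. They summed to 105567 to 121842 units on the DMSO arrays and 118905 to 153502 on the agonist arrays, a sum that follows the brightest probes, and their part in these falls was not tested.

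In the enterocyte list 2 of 31 genes fell and 1 rose, and 6 had positive values (median -0.21). The median was -0.35 under T0901317 and -0.10 under GW3965, which share the DMSO arrays. Between the agonists 5 of the 31 differed, beside 5.40% over all genes tested. The neutral amino acid transporter gene slc6a19a.1 read 71.2, 57.0, 61.2 and 58.4 units in DMSO and 23.2 to 32.0 (median 23.7) under the agonists, a 2.41-fold fall (-1.27 ± 0.10, limma, adjusted p = 6.72e-05, or -0.49 with normexp). Adenosine deaminase, ada, fell (-0.57 ± 0.10, adjusted p = 0.0113, or 0.0711 without the arrays numbered 4). The peptide transporter gene slc15a1b had no overlap and did not pass (-0.50 ± 0.13, adjusted p = 0.0851). The structural gene vil1 was at -0.04 ± 0.10 and the intestinal fatty acid binding protein gene fabp2 at 0.26 ± 0.08 (adjusted p 0.904 and 0.152). The riser, the bile salt stimulated lipase gene cel.1, is on the exocrine pancreas list as well (0.55 ± 0.12, adjusted p = 0.0294). Its arrays overlapped, and its call ended in 9 of 24 alternatives (adjusted p 0.057 to 0.112), among them leaving out DMSO replicate 2, 3 or 4 or any 1 GW3965 array. The other called gene of the 26 on that list, the zymogen granule gene sycn.2, fell (-0.57 ± 0.09, adjusted p = 0.00846, or 0.0801 without the arrays numbered 4; median 0.08). The 4 enterocyte markers, slc15a1b included, changed by -0.50 to 0.26 on the log2 scale. They summed to 49279 to 63351 units on the DMSO arrays and 56739 to 68752 on the agonist arrays, and their part was not tested.

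The lysozyme gene lyz, made by neutrophils and macrophages, read 216, 203, 213 and 199.7 units in DMSO and 88.7 to 132 (median 106) under the agonists. It fell 1.93-fold (-0.95 ± 0.11, limma, adjusted p = 0.000984) and was the 1 called gene of 12 in the neutrophil list (median -0.00), where mpx was at -0.11 ± 0.11 and npsn at -0.07 ± 0.30. These 3 markers, lyz included, summed to 378 to 405 units on the DMSO arrays and 233 to 350.2 on the agonist arrays, and their part was not tested. In the macrophage list 1 of 25 genes rose and 2 fell (median -0.02). The riser was havcr1 (0.40 ± 0.08, adjusted p = 0.021, or 0.0522 without DMSO replicate 1). There slc7a7, an amino acid transporter needed by zebrafish microglia, fell from a DMSO range of 606 to 631 units to an agonist range of 359.9 to 440.4 with a median of 407 (-0.60 ± 0.07, adjusted p = 0.000678), while mpeg1.1 was at -0.11 ± 0.08 (adjusted p = 0.599). The chemokine gene cxcl19 fell from a DMSO range of 47.4 to 66.4 units to an agonist range of 22.4 to 41.4 with a median of 29.3 (-0.95 ± 0.16, adjusted p = 0.00809, or -0.35 with normexp, and adjusted p = 0.0896 without the arrays numbered 4). In the list for acute phase and inflammation 1 of 30 genes fell and 0 rose (median 0.04). It was the complement gene c3a.6 (-0.63 ± 0.11, or -0.32 with normexp), whose call ended without DMSO replicate 2 or 3 (adjusted p 0.0623 and 0.054).

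In phototransduction and the visual cycle 2 of 51 genes rose and 3 fell, 12 had positive values and the median was -0.16. The called genes included 4 of the 6 measured guanylate cyclase activators, calcium sensors that let photoreceptors recover from light. Of these, 3 were lower and 1 higher, beside 2.49% called over all genes tested. This family was looked up after its values were seen, so no test is attached to the grouping. For guca1b the DMSO arrays read 9.69, 11.4, 16.4 and 25 units, and no agonist array was well above background. On the processed signal it was at least 1.78-fold lower. This bound sets the DMSO mean against each agonist array's lowest signal that was well above background. The call (limma, adjusted p = 0.0038) belongs to the fit of the unbounded values, not to this bound. The gene passed the filter through its DMSO arrays alone, and its agonist values lay near background. With normexp and its offset it was at -0.21. With T0901317 replicate 2 put back the call ended (adjusted p = 0.453).

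The relatives guca1d (-0.93 ± 0.15, or -0.45 with normexp) and guca1g (-0.67 ± 0.11) also fell (adjusted p 0.00789 and 0.0093, or 0.0783 and 0.0714 without the arrays numbered 4), the former without a call once T0901317 replicate 2 was put back (adjusted p = 0.0977). Opposite in direction, guca1aa rose (1.05 ± 0.22, adjusted p = 0.0267) on a dim probe, a call that ended with normexp (0.25, adjusted p = 0.0506), with T0901317 replicate 2 put back (adjusted p = 0.059) and without DMSO replicate 1 or 2, T0901317 replicate 3 or GW3965 replicate 2 (adjusted p 0.0516 to 0.0994). The green cone opsin gene opn1mw1 was called higher (0.46 ± 0.10, adjusted p = 0.0349), but not in 13 of 24 alternatives (adjusted p 0.0509 to 0.184), among them leaving out any 1 array except DMSO replicate 3, T0901317 replicate 1 or T0901317 replicate 3. The rod opsin gene rho was at -0.14 ± 0.12 (adjusted p = 0.68). The 4 photoreceptor markers summed to 70406 to 101585 units on the DMSO arrays and 64243 to 94951 on the agonist arrays, and their part was not tested.

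The aldehyde reductase gene akr1a1a fell from a DMSO range of 188 to 263 units to an agonist range of 84.5 to 148 with a median of 127 (-0.92 ± 0.16, limma, adjusted p = 0.0113). The deoxyribose-phosphate aldolase gene dera fell from a DMSO range of 81.2 to 108 units to an agonist range of 41.6 to 62.6 with a median of 53.8 (-0.90 ± 0.13, adjusted p = 0.00344, or -0.46 with normexp). Folylpolyglutamate synthase fpgs (-1.45 ± 0.32), the fructose-2,6-bisphosphatase tigarb (-1.0 ± 0.19) and the iron-sulfur cluster factor bola3 were near background under the agonists. Of the 7 agonist arrays, 2, 1 and 0 were well above it, so these genes passed the filter only through their DMSO arrays. On the processed signal bola3 was at least 1.58-fold lower, by the bound used for guca1b. With normexp none of these 3 was called (-0.24, -0.09 and -0.14; adjusted p 0.0561, 0.577 and 0.354), and each also lost its call without DMSO replicate 2 or 3 (adjusted p 0.0573 to 0.13). The calls of fpgs and bola3 ended as well without DMSO replicate 1 or 4, T0901317 replicate 1 or GW3965 replicate 3, that of fpgs without GW3965 replicate 1 and that of bola3 without GW3965 replicate 2 (adjusted p 0.0513 to 0.0981). The ecto-nucleotidase gene nt5e fell (-0.89 ± 0.14, or -0.32 with normexp), but on T0901317 replicate 2 it read 75.3 units, above the DMSO range of 48.6 to 53.6, and with that array put back it was not called (adjusted p = 0.407).

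After slc6a19a.1 and ahsg2, the smallest p value among falls with a symbol and no overlap was that of metrn. Meteorin, metrn, a secreted factor of glia, read 146, 144, 162 and 156 units in DMSO and 88.0 to 104 (median 94.5) under the agonists (-0.68 ± 0.06, limma, adjusted p = 0.000211). Similar values were found for psme3ip1 (-0.63 ± 0.07), a partner of a proteasome activator, the G protein subunit gene gna15.1 (-0.63 ± 0.07), ccdc137 (-0.76 ± 0.08) and zgc:92040 (-0.81 ± 0.09), with adjusted p 0.000211 to 0.00078. The second probe of gna15.1 did not share its sign, and over the mean of its probes the gene was at -0.21 (adjusted p = 0.129).

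Few or no genes were called in the lists of general cell states, beside 2.49% of all genes tested. At that share lists of this length hold few calls, so the counts of 0 do not set them apart. DNA replication and cell division had 0 called of 37 genes (median 0.00), oxidative stress defence 0 of 26 (median 0.18), epidermis and keratins 0 of 30 (0.12) and endothelium 0 of 22 (0.10). At an unadjusted p under 0.05 the pooled fit held 3412 genes in all. In the unfolded protein and integrated stress response 2 of 33 genes rose (median 0.03): atf3 (0.54 ± 0.12) and herpud1 (0.36 ± 0.08). Their calls ended in 14 of 24 and 11 of 24 alternatives (adjusted p 0.0512 to 0.156 and 0.0518 to 0.126), among them leaving out any 1 array except GW3965 replicate 1 for atf3, and DMSO replicate 1, T0901317 replicate 1 or T0901317 replicate 4 for herpud1. In glucose metabolism 2 of 29 genes were called higher, pfkfb4b (0.37 ± 0.08) and pklr (0.52 ± 0.11), and these calls ended in 15 of 24 and 10 of 24 alternatives (adjusted p 0.0509 to 0.131 and 0.0578 to 0.104), among them leaving out any 1 array except DMSO replicate 4 for pfkfb4b, and T0901317 replicate 1 or 4 or GW3965 replicate 3 or 4 for pklr. One, the gluconeogenic gene fbp1b (-0.33 ± 0.06, adjusted p = 0.0157), fell (median 0.03), and without DMSO replicate 2 fbp1b was not called (adjusted p = 0.0592). In the erythrocyte list 1 of 22 rose (median 0.03), hbbe2, whose arrays overlapped.

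The contrast between the agonists was not used to choose these genes. The rule nevertheless asks that both agonists lie on the same side of DMSO. It drops genes in which the agonists parted, or in which only T0901317 or only GW3965 left the DMSO range. The shares below among genes with no overlap are therefore shaped by the rule. The labelled doses differ, and each agonist lies on a slide of its own, so compound, dose and slide cannot be told apart. Over all genes tested, T0901317 and GW3965 differed in 1276 (5.40%) at an adjusted p under 0.05, 1244 of them (5.26%) higher under T0901317. The 1276 were 825 without T0901317 replicate 1 and 796 with normexp. Among the genes with no overlap 20 differed, 11 of the 471 higher ones (2.34%) and 9 of the 566 lower ones (1.59%). Of the 11, 10 were further from DMSO under T0901317, as were 2 of the 9. Without T0901317 replicate 1 the count was 6, without GW3965 replicate 2 or 3 it was 11, and with T0901317 replicate 2 put back it was 13. Among the 28 rises of at least 2-fold with a symbol, the T0901317 mean was further from DMSO in 25. Over all 471 higher genes this held in 233 (49.5%). Among the 7 falls of at least 2-fold with a symbol it held in 3, and over all 566 lower genes in 218 (38.5%), while over all genes tested T0901317 lay above GW3965 in 51.9%.

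Of the higher genes with a symbol, fabp4b differed most, at a log2 difference of 1.24 ± 0.23 between T0901317 and GW3965 (limma, adjusted p = 0.00753). It rose 7.35-fold under T0901317 and 3.11-fold under GW3965. The others with a symbol were crygs2 (0.78 ± 0.18), srebf1 (0.63 ± 0.13), pcyt1bb (0.57 ± 0.12) and sc5d (0.48 ± 0.11), with adjusted p 0.019 to 0.0309. Of the lower genes apoea was further down under T0901317 (-0.76 ± 0.08, adjusted p = 0.000342), as was apobb.1 (-0.41 ± 0.10, adjusted p = 0.0457). Also among the lower genes hinfp (0.40) and efnb2b (0.36) were further down under GW3965. So was the DNA helicase gene brip1 (0.51 ± 0.13, adjusted p = 0.0456), a call that ended once replicate numbers entered as a block (adjusted p = 0.104), with quantile normalization and without any 1 of the 7 agonist arrays (adjusted p 0.062 to 0.197). The 3 other probes of brip1 were at -0.037, -0.024 and -0.078 against DMSO, and the arrays of each overlapped. Its pooled call against DMSO ended in 5 of 24 alternatives, among them the mean over its probes and T0901317 replicate 2 put back. The differences of fabp4b and apoea held in all 11 alternatives. Those of crygs2, srebf1, pcyt1bb, sc5d and apobb.1 ended in 4 to 8 of 11, in each gene without T0901317 replicate 1 (adjusted p 0.0777 to 0.123). Each of the other 6 agonist arrays also ended at least 1 of these 5 calls when left out (adjusted p 0.0513 to 0.148), GW3965 replicate 1 only that of apobb.1. A difference that missed the threshold does not show that the agonists acted alike: for fads2 it was 0.18 ± 0.11, for pltp 0.38 ± 0.19 and for lipg -0.07 ± 0.15, each ± SE.

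**Figure D4:**
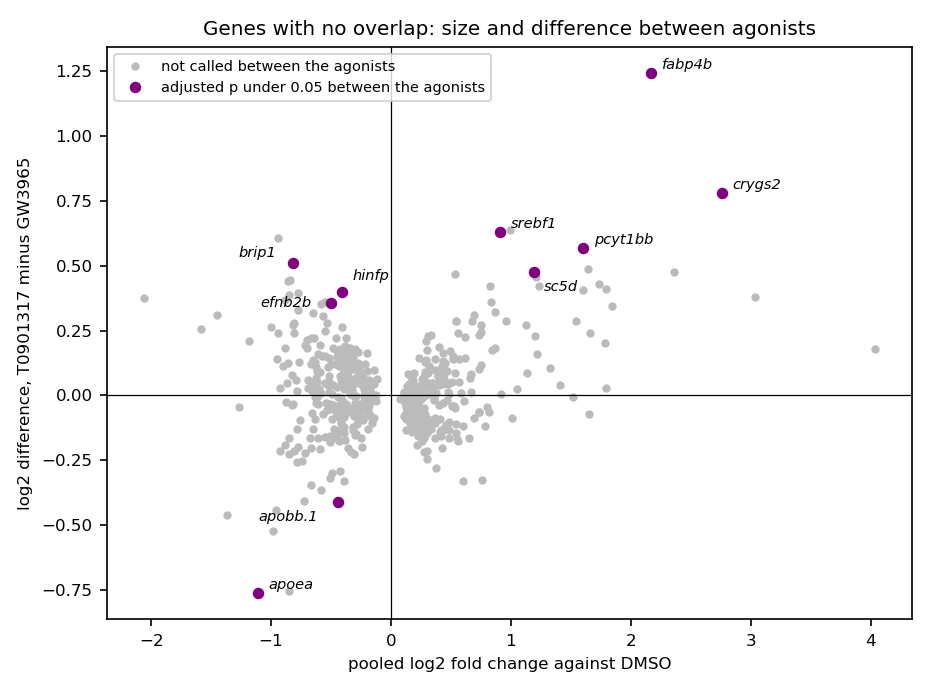
Pooled log2 fold change against DMSO (horizontal) and log2 difference between T0901317 and GW3965 (vertical) for the genes with a symbol and no overlap; purple points differ between the agonists at an adjusted p under 0.05. Rises beyond 1 lie mostly above the horizontal line, with fabp4b at 1.24, and fads2 at the far right lies at 0.18.

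The excluded array T0901317 replicate 2 gave values that the rule had not used, although it is read against the same DMSO arrays. It stood apart, with 89.8% of probes well above background and correlations of 0.951 to 0.957 with the other arrays. Over all genes tested it lay above the DMSO range in 49.6% and below it in 19.2%. Among the 471 higher genes it lay above that range in 332 (70.5%) and below it in 44. Among the 566 lower genes it lay below in 333 (58.8%) and above in 151. All 53 higher genes of at least 2-fold lay above on this array, against 10 of 23 lower genes of at least 2-fold lying below. On it fads2 read 8924 units, pltp 2569.6, ahsg2 291 and apoea 888, on the side of the other agonist arrays. By contrast guca1b read 44.1 units, above all 4 DMSO arrays.

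**Figure D5:**
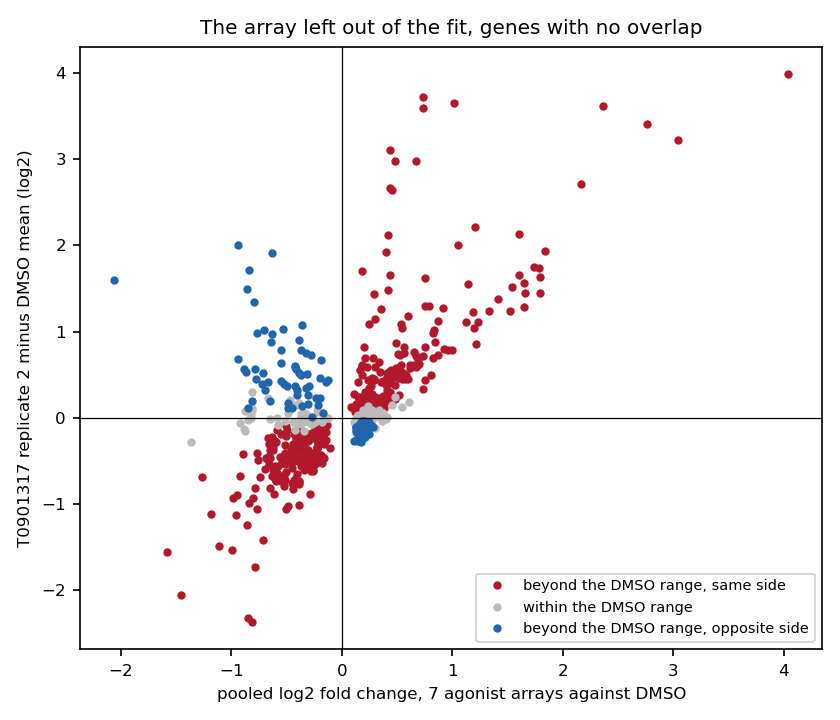
Pooled log2 fold change of the 7 agonist arrays (horizontal) and T0901317 replicate 2 minus the DMSO mean (vertical), both against the same DMSO arrays, for genes with a symbol and no overlap. Genes with large rises lie high on both axes, whereas a part of the lower genes, guca1b among them, lies above 0 on the excluded array.

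Other probes of the same genes had not been used either, although they were read on the same arrays and the same RNA. All probes of a gene share the effects of pool and slide, so a shared sign is no separate test of treatment. Of the higher genes 235 had at least 1 further probe, and in 171 (72.8%) all of them were higher too. For the lower genes this was 118 of 179 (65.9%), beside 53.6% for a shared sign over all 8535 genes with further probes. In 51 and 25 genes every further probe also showed no overlap on the same side. Among these were fads2 with 6 further probes and abcg1 and insig1 with 2 each. Both further probes of nr1h3 were higher, 1 of them with no overlap.

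The rule's edge fell among small gaps. The called genes closest inside it were mgp, fabp10a and insl5b among rises and slc25a28, zgc:113363 and atp5md among falls. For atp5md the gap between the groups was 0.02 on the log2 scale. The called genes just outside were cyp1a, hbbe2 and slc25a33 among rises and lgals3bp.1, mfsd6l and nanp among falls. In lgals3bp.1 only T0901317 replicate 4 lay above the lowest DMSO array, with 148, 188, 197 and 170.4 units in DMSO and 108 to 149 (median 129) under the agonists. Most of these 12 calls ended when single arrays were left out, in 16 of 24 alternatives for slc25a28 but 1 of 24 for hbbe2 and 2 of 24 for mgp (without DMSO replicate 3, adjusted p = 0.0535). Members on both sides of the edge had values of like size, -0.37 ± 0.08 for atp5md and -0.48 ± 0.11 for lgals3bp.1.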

How the data were processed

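Whole-larva RNA was measured on 12 one-colour (Cy3) Agilent arrays, 1 per pool. The deposited intensity values are processed signals that Agilent Feature Extraction 11.0.1.1 background-subtracted and detrended within each array, per the file headers, with no scaling between arrays. The deposited value table equals them. Spot flags (saturation, outlier, well above background) are deposited as values of 0 or 1, per the file headers. Probe names come from the platform's annotation updated through RefSeq tables: 25069 of 43603 probes had a single gene, 12858 genes in all. The 18534 probes without a symbol kept their platform identifier. Each such identifier was counted as a gene, so 1 gene can enter more than once.

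Outlier spots were left out (85 missing values among the genes tested were left missing), spots of a probe averaged, and log2 intensity taken minus each array's 75th percentile over non-control probes. The brightest probe stood for a gene, and genes well above background on at least 3 of 11 arrays were tested, 23645 in all, 12097 with a symbol. Limma 3.58.1 (R 4.3.3; lmFit, eBayes) compared 7 agonist with 4 DMSO arrays, with Benjamini-Hochberg adjustment and a threshold of 0.05, and 3 group means for the agonists against each other. The pooled fit was also run on simulated arrays with independent noise. These held no slide effect and no difference between the agonists, so they do not show how the fit behaves with either. The number of arrays limits the precision.

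Named genes were the 15 largest called rises and falls among those well above background on every array of a group, LXR targets with no overlap, at most 5 such members from every other list, the 6 largest differences each way between the agonists, genes above background in 1 group only, the 8 smallest p values each way and the 3 genes on either side of the rule's edge. Other list members named were picked for their role in the pathway after values were seen. The members, lists and tests were chosen with earlier results of these data known. Same-numbered T0901317 and GW3965 arrays deviated together from their group means (r = 0.132, 0.280 and 0.498). Each pair passed a cut of 0.1, so the numbers of the agonist arrays count as paired. Not every DMSO pair passed this cut, so DMSO numbers do not. Still, DMSO replicate 4 had r = 0.463 and 0.382 with the T0901317 and GW3965 arrays of its number. For replicate 1 this is weak: GW3965 replicate 1 had r = 0.178 with T0901317 replicate 3, and T0901317 replicate 1 had 0.160 with GW3965 replicate 2. The main fit between the agonists left the numbers out, and an alternative entered them as a block. Alternatives changed the background correction, scaling, filter, probe, arrays, model and threshold. Promoter motifs were not analysed here, and 1 member of the cholesterol list is not reported here.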

Additional observations from a re-analysis of the deposited data

Results flagged for a closer look

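In 109 named genes, the DMSO, GW3965 and pooled agonist groups were searched for an array far from the rest of its group, measured as the gap to the nearest array over the group's range. This found 16 of 327 groups (4.89%), and chance alone gives about 1 in 20. In the DMSO group zgc:113363 had the lowest value in replicate 1 (0.971), acsl4a in replicate 3 (0.932) and pcyt1bb in replicate 2 (0.890). The highest DMSO value stood apart for mgp (replicate 2, 0.912), fabp4b (replicate 3, 0.905) and serpind1 (replicate 2, 0.846). The lowest did so for elovl8a (replicate 1, 0.843) and cyp2p9 (replicate 3, 0.835).

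Under GW3965, replicate 4 was the array apart for apoa4a (lowest, 0.890) and gys2 (highest, 0.880), and replicate 2 for zgc:113363 (highest, 0.856). Among all 7 agonist arrays, GW3965 replicate 4 was the lowest for tsen15 (0.677) and hbbe2 (0.604). GW3965 replicate 2 was the highest for acsl1b (0.628), GW3965 replicate 1 for ccdc137 (0.605) and T0901317 replicate 3 for sult1st4 (0.615).

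Named genes also differed between T0901317 and GW3965 by the limma contrast, with log2 differences of 1.24 for fabp4b, 0.78 for crygs2, 0.63 for srebf1, 0.57 for pcyt1bb, 0.51 for brip1, 0.48 for sc5d, -0.41 for apobb.1 and -0.76 for apoea.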

How the results depend on the processing

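The count of 588 called genes (223 higher, 365 lower) stayed within 1.5 times under normexp (614), quantile scaling (574), scaling on bright probes (564), detection required on all arrays (618) or on none (492), the mean of a gene's probes (526), slide as a random block (683), 3 group means (692) and a trended robust eBayes (708). It moved to 1042 (348 and 694) over every probe, 959 (391 and 568) with array weights, 309 (147 and 162) with T0901317 replicate 2 put back, 227 (106 and 121) at an adjusted p under 0.01 and 74 (54 and 20) with a 2-fold minimum. Leaving out 1 array gave 325 to 606 calls, 143 to 234 higher and 182 to 392 lower, and leaving out all arrays numbered 4 gave 257 (111 and 146). Without DMSO replicate 2 there were 325 and without DMSO replicate 3 there were 340. The count of genes with no overlap was 1689 probes over every probe (1000 lower), 667 (333 lower) with T0901317 replicate 2 put back, 1144 to 1931 without 1 array (508 to 1010 higher, 609 to 921 lower) and 2184 (1151 and 1033) without the arrays numbered 4. Fewer arrays make no overlap easier to reach: without DMSO replicate 1 it was 1931 and without DMSO replicate 4 it was 1611.

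With the replicate number as a block 617 genes were called, 473 of them among the 588. DMSO replicate 4 deviated together with T0901317 replicate 4 (r = 0.463) and GW3965 replicate 4 (r = 0.382), and DMSO replicate 3 less so with those of its number (0.134 and 0.158). DMSO replicate 1 had r = 0.168 with GW3965 replicate 1, but 0.0256 with T0901317 replicate 1 against 0.304 with T0901317 replicate 3. DMSO replicate 2 had r = 0.0441 with GW3965 replicate 2, so not every pair passed 0.1 and DMSO numbers were not taken as paired. With replicate number as a block the calls of cetp, nanp, fabp4a, hadhb, srebf1, insl5b, cyp1a, guca1aa, tigarb, srebf2, pklr, dus3l, slc25a33 and zgc:113363 ended, with adjusted p from 0.0502 for cetp to 0.0808 for zgc:113363 (0.0606 for guca1aa and 0.0614 for tigarb). Among the genes with no overlap the agonists differed in 20, or 17 with the block, 13 with T0901317 replicate 2 put back and 6 to 18 without 1 array (6 without T0901317 replicate 1, 11 without GW3965 replicate 2 or 3). Over all genes the block gave 1256 in place of 1276. Beside those given in the report, the calls of srebf1, cetp, fdps, cyp51, hsd17b7, elovl8a, hsd17b12a, fabp10a, f9b, serpind1, fbp1b, havcr1, hbbe2, nt5e and mgp ended without the arrays numbered 4, and those of fabp10a, serpind1, c3a.6, fbp1b and hsd17b12a over the mean of a gene's probes. No named gene and no called list member changed sign under any alternative in which single genes were followed. In the fit over every probe they were not followed, and further probes of soat1, gna15.1 and zgc:113363, among others, had the opposite sign. The search of promoters for motifs was not run.

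The normexp offset of 50 shrinks the log2 values of dim probes by construction. Such shrinkage does not show which value is right. Under normexp the value shrank more than 1.5 times for scd, crygs2, sqlea, lss, abcg1, slc6a19a.1 and other genes with normexp values in the report, and for cyp51 (0.71), mvk (0.33), mgp (0.44), insl5b (0.38), ccdc137 (-0.50), mrpl40 (-0.47), nr1d1 (-0.32, adjusted p = 0.0538), mfsd6l (-0.13, adjusted p = 0.376) and dus3l (-0.12, adjusted p = 0.325). No alternative separates slide from treatment.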

Other observations

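Some gene families beyond the lists had several called members. They were picked after their values were seen, so no test is attached to the grouping. Over all genes tested 0.943% were called higher and 1.54% lower. Of 10 measured fatty acid binding protein genes, 6 rose and 1 fell. Besides fabp4b, fabp4a, fabp7a and fabp10a, these were the heart form fabp3 (0.43 ± 0.06, limma, adjusted p = 0.00306), fabp7b (0.34 ± 0.07, adjusted p = 0.0209) and, downward, the form fabp1a (-0.78 ± 0.16, adjusted p = 0.021). Of 3 pantothenate kinase genes, which open the synthesis of coenzyme A, pank1a (0.69 ± 0.11, adjusted p = 0.00558) and pank1b (0.73 ± 0.08, adjusted p = 0.000538) rose. Of 6 genes of serine palmitoyltransferase, the first enzyme of sphingolipid synthesis, the catalytic subunit genes sptlc2a (0.40 ± 0.05, adjusted p = 0.0019) and sptlc2b (0.69 ± 0.07, adjusted p = 0.00025) rose. Of 7 acyl-CoA thioesterase genes measured (median -0.05), acot14 (-0.82 ± 0.10, adjusted p = 0.000967) and acot18 (-0.37 ± 0.07, adjusted p = 0.0204) fell. Of the 2 other probes of acot14, 0 had no overlap on the same side, and T0901317 replicate 2 lay within the DMSO range. The cholesterol 25-hydroxylase-like gene ch25hl1.1 rose by 0.67 ± 0.09 (adjusted p = 0.0025). Of the genes in this paragraph, only fabp4b, fabp4a, fabp7a and fabp10a were followed under the alternatives.

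Neighbouring genes in the RefSeq order of assembly GRCz12tu were listed among genes with no overlap. Of 12072 neighbouring pairs of measured genes, 26 had both members on the same side and 19 on opposite sides. Of the 12097 genes tested with a symbol, 290 had no overlap higher and 293 lower. At that share some pairs arise without a link between neighbours, and such a link was not tested. On the same side were cyp2x10.2 with si:dkey-286h2.3, herpud1 with cetp, and acot14 with acot18. On opposite sides were apoeb with apoc4, apoa4a with apoea, and ca15c (0.80 ± 0.10) with ca15a (-0.44 ± 0.10). Recent copies of a gene can share sequence, and probe specificity was not tested.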
